A study of Mus musculus with 6 samples.

Results

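Liver glucose production rests on a short set of genes, and 9 of them are described here: Pck1, G6pc, Fbp1, Ppargc1a, Tat, Sds, Tdo2, Pklr and Slc2a2. They were taken by name from a deposited table of 43346 genes, and all 9 were found. RNA of whole mouse liver was sequenced in 6 libraries. In 3 of them, numbered 2, 3 and 2600, the labels name an AAV8-delivered short hairpin RNA (shRNA) against S100a11, and they call these livers knockdown. In the other 3, numbered 28, 30 and 31, the hairpin is scrambled and the livers are called control. Both groups received the FFC diet, used as a dietary model of metabolic dysfunction-associated steatohepatitis (MASH), so no group on ordinary chow is part of the comparison. Not given in the sources used here are strain, sex, age, feeding state and hour of collection. Neither do they say whether each sample was its own animal, and the p-values therefore cover the spread of these samples, which may be technical. AAV8 is a viral vector with a strong preference for hepatocytes.

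Gluconeogenesis makes glucose from lactate, glycerol and amino acids. Pck1 (cytosolic phosphoenolpyruvate carboxykinase), Fbp1 (fructose bisphosphatase) and G6pc (the catalytic subunit of glucose 6-phosphatase) catalyse the steps that bypass the one-way reactions of glycolysis, and Pklr (liver pyruvate kinase) catalyses the last of those one-way reactions in the opposite sense. Tat, Sds and Tdo2 break down tyrosine, serine and tryptophan, and Slc2a2 encodes GLUT2, the glucose carrier of the hepatocyte surface. Ppargc1a encodes PGC-1alpha, a coactivator of gluconeogenic genes. Glucagon and glucocorticoids are known to raise transcription of Pck1, G6pc and Tat, and insulin to lower it, whereas feeding carbohydrate raises Pklr.

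Promoters of the 3 genes with the largest changes, and of Pklr, whose estimate had the opposite sign, are printed to show the sequence from which these transcripts start. Each is the 250 bases before a RefSeq transcription start in GRCm38.p6, 5′ to 3′ on the gene's own strand, which is the plus strand for all 4. Capitals mark exact matches, on either strand, to the letters searched. Pklr has more than one start, and the downstream start, from which the liver form is known to begin, is shown.
Pck1, chr2:173152823-173153072: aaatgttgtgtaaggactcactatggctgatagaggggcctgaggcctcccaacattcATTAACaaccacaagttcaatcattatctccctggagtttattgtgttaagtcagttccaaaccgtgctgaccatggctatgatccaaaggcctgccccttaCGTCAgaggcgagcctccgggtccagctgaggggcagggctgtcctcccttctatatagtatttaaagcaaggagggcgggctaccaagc
G6pc, chr11:101367466-101367715: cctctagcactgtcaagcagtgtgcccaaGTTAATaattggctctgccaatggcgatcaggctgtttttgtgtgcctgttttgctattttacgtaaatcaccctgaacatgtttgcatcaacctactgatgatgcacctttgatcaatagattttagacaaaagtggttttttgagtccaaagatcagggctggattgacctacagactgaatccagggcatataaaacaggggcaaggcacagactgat
Tat, chr8:109990186-109990435: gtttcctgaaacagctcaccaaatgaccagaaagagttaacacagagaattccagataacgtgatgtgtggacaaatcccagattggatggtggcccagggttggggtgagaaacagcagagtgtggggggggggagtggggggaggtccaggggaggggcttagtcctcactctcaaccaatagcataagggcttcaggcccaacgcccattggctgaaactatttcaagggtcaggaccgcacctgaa
Pklr, chr3:89136373-89136622: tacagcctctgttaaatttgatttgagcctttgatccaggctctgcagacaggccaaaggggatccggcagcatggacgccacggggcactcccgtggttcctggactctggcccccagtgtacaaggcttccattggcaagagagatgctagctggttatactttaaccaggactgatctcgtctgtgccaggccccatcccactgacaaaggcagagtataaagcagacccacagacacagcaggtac

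The Pck1 window holds the core of a cAMP response element (TGACG, read here as CGTCA on the printed strand) 90 to 86 bases before the start. It also holds the core of an HNF1 site (GTTAAT, read as ATTAAC) 192 to 187 bases before it. The G6pc window holds the HNF1 core GTTAAT 221 to 216 bases before its start. Over 32536 different promoter windows of the same length, 17.9% held TGACG or its reverse and 6.47% held GTTAAT or its reverse. Also searched were the forkhead element TGTTTAC, the glucocorticoid element arm TGTTCT, the E-box CACGTG and the C/EBP core TTGCG, which 3.17%, 16.0%, 6.04% and 14.6% of windows held. Only these exact letters were sought, so variant forms of the elements may be present. None of the exact forms lay in the printed windows. No overlap between motif matches occurred there. The RefSeq table had a promoter for 8 of the 9 genes, all but Sds. The deposited gene models of Pck1 and G6pc begin upstream of the starts used here.

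Libraries held 53517387 to 78091845 counts, and the 9 genes 1128 to 197067 counts each, so counting error was at most 2.98% of a value and the spread between libraries set the precision. Levels are given as CPM, counts relative to the library total after TMM scaling between libraries. S100a11 itself checks the labels. It stood at 16.0, 3.55 and 3.41 CPM in libraries 2, 3 and 2600, while scrambled libraries 28, 30 and 31 had 15.9, 22.9 and 30.0 CPM. The library labelled S100a11 shRNA 2 thus held the target at the level of the lowest control, and over all 6 libraries S100a11 missed the threshold (log2 change -1.57, edgeR adjusted p = 0.095). Without library 2 it passed, at -2.75 (adjusted p = 0.00044), and over all 6 it passed with library totals alone (adjusted p = 0.042) and in limma voom (adjusted p = 0.042, or 0.0080 with quality weights). Directions below are those of the libraries labelled S100a11 shRNA, with values without library 2 where they change a call. Over all genes, disagreement of library 2 with scrambled libraries 28, 30 and 31 was 193, 223 and 158 (chi-square per gene). It was 235 and 349 with libraries 3 and 2600, and 48.4 to 75.2 among the controls. On the first principal component of log2 CPM, library 2 lay at -24.7 and libraries 3 and 2600 at -61.1 and -62.3. The controls lay at 41.1 to 54.8. Library 2600 also stood apart, with 10.8% of its counts in the non-coding gene Gm26917 against 3.16% to 6.44% in the others.

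Of the 9 genes, 4 rose in the libraries labelled S100a11 shRNA (Pck1, G6pc, Tat and Fbp1), 0 fell and 5 did not pass the threshold, an adjusted p under 0.05 in edgeR's quasi-likelihood test. Of all 19352 genes tested, 14.1% passed in either direction, 5.82% by rising and 8.28% by falling. With TMM scaling the groups did not overlap in 6 of the 9 genes, against 34.7% of all genes. In all 6 the S100a11 shRNA libraries were the higher, against 16.5% of all genes (18.1% of all genes were lower without overlap). The 6 include Ppargc1a, which differed 1.08-fold (edgeR adjusted p = 0.61) and had a log2 change of -0.26 with library totals alone. Overlap was not counted under other scalings. The median log2 change of the 9 was 0.57, beside 0.04 over all genes tested. Without scrambled library 30, 2 of the 9 passed, Pck1 and G6pc, and with library totals alone or upper-quartile factors 3 passed, all but Fbp1 of the 4.

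**Figure D1:**
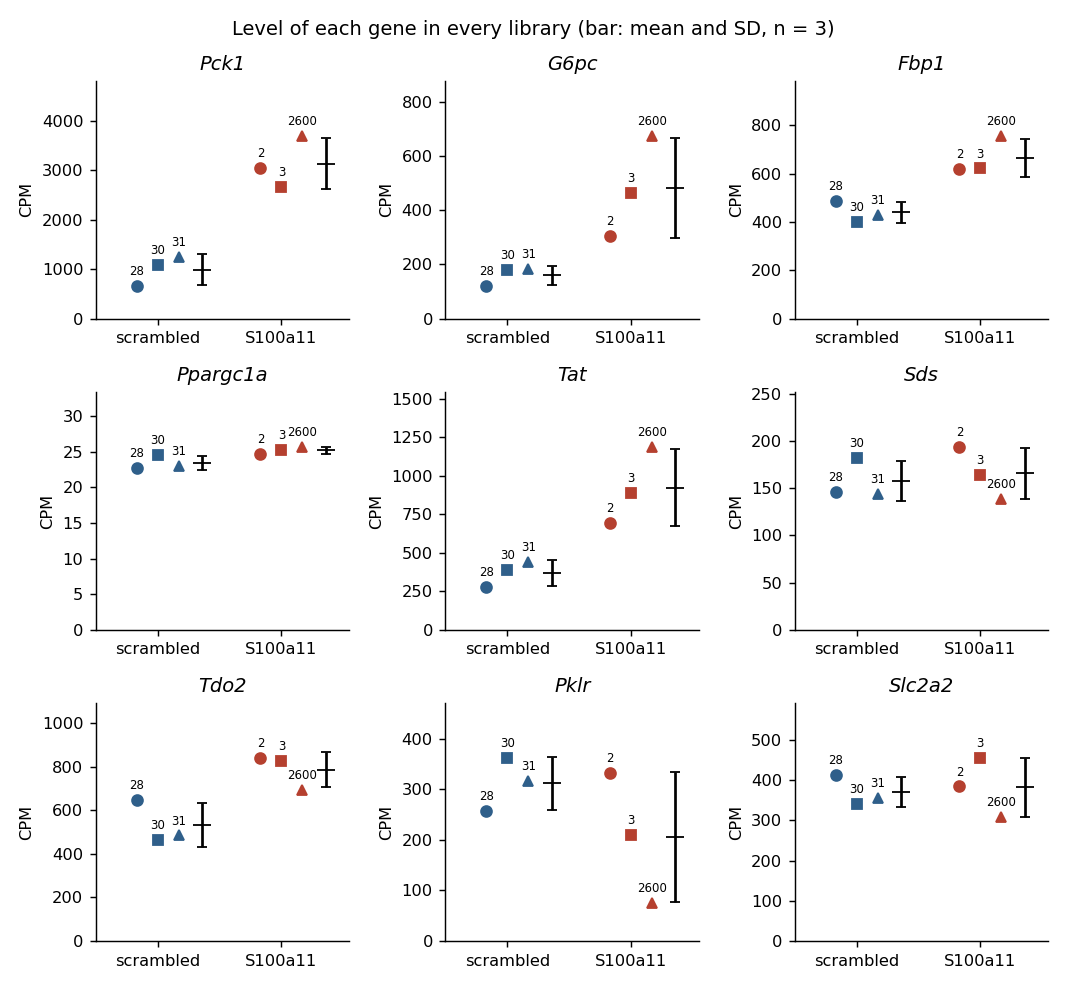
Level of each of the 9 genes in CPM (vertical axis, from 0) in the scrambled (blue) and S100a11 shRNA (red) libraries, with library numbers beside the points and black bars for mean and SD (n = 3). The groups lie apart for Pck1, G6pc, Fbp1, Tat, Tdo2 and, by a narrow margin, Ppargc1a, and overlap for Sds, Pklr and Slc2a2.

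Pck1 showed the largest change. The gene (ENSMUSG00000027513) spans 173153048 to 173159273 of chromosome 2 in mm10, plus strand. Its product makes phosphoenolpyruvate from oxaloacetate. It stood at 3053, 2665 and 3697 CPM in libraries 2, 3 and 2600, and at 654, 1083 and 1243 CPM in scrambled libraries 28, 30 and 31. Every S100a11 shRNA library lay over the highest control, library 31, and the control spread came mostly from library 28. The means were 3138 ± 522 and 993 ± 305 CPM (SD, n = 3 each). The log2 change of 1.66 ± 0.29 (SE), or 3.16-fold, had an edgeR adjusted p of 0.0093 and exceeded the change of 98.8% of genes tested. An exact two-sided permutation test gave p = 0.1, the smallest that 3 against 3 libraries allow. Over 17 alternatives in scaling, filter, test and libraries left out, Pck1 stayed higher with log2 changes of 1.29 to 1.85 and passed in each.

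G6pc, whose product releases free glucose from glucose 6-phosphate, rose nearly as much. The gene (ENSMUSG00000078650, chromosome 11, 101367561 to 101377903, plus strand) stood at 306, 463 and 674 CPM in libraries 2, 3 and 2600, and at 120, 180 and 182 CPM in scrambled libraries 28, 30 and 31. The groups did not overlap, and the S100a11 shRNA libraries were the more scattered, with library 2 lowest and library 2600 highest. Group means of 481 ± 185 and 161 ± 35.1 CPM (SD, n = 3 each) differed 3.00-fold (log2 change 1.58 ± 0.29, SE, edgeR adjusted p = 0.011). G6pc passed under all 17 alternatives (log2 changes of 1.19 to 1.79), and the exact permutation p was again 0.1.

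Fbp1, the enzyme between these steps, differed by less. The gene (ENSMUSG00000069805, chromosome 13, 62864753 to 62888282, minus strand) stood at 620, 622 and 756 CPM in libraries 2, 3 and 2600, and at 487, 401 and 430 CPM in scrambled libraries 28, 30 and 31. Values were tight within both groups and did not overlap. The log2 change was 0.60 ± 0.17 (SE), or 1.52-fold, close to the threshold (666 ± 78.4 against 440 ± 43.8 CPM, SD, n = 3 each, edgeR adjusted p = 0.044). The call ended without library 3 (adjusted p = 0.085), library 2600 (adjusted p = 0.101) or scrambled library 28 (adjusted p = 0.079), 30 (adjusted p = 0.172) or 31 (adjusted p = 0.142). It also ended with upper-quartile factors (adjusted p = 0.068) and with library totals alone (log2 change 0.24, adjusted p = 0.267).

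Tat, the first enzyme of tyrosine breakdown and a classic glucocorticoid target, rose 2.50-fold. The gene (ENSMUSG00000001670, chromosome 8, 109990437 to 109999803, plus strand) stood at 692, 888 and 1186 CPM in libraries 2, 3 and 2600, and at 279, 389 and 438 CPM in scrambled libraries 28, 30 and 31. As for Pck1 and G6pc, library 28 was the lowest control and library 2600 the highest of all. The log2 change was 1.32 ± 0.25 (SE; 922 ± 249 against 369 ± 81.4 CPM, SD, n = 3 each, edgeR adjusted p = 0.012). It passed under 16 of 17 alternatives, the exception being the fit without scrambled library 30 (log2 change 1.36, adjusted p = 0.052).

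Tdo2, which opens the indole ring of tryptophan, was 1.48-fold higher without passing. The gene (ENSMUSG00000028011, chromosome 3, 81957090 to 81976202, minus strand) stood at 839, 826 and 695 CPM in libraries 2, 3 and 2600, and at 647, 464 and 484 CPM in scrambled libraries 28, 30 and 31. The groups did not overlap, but the highest control, library 28, lay close to library 2600. The log2 change was 0.57 ± 0.19 (SE, edgeR adjusted p = 0.080), and DESeq2 (adjusted p = 0.023) and limma voom with quality weights (adjusted p = 0.048) placed it past the threshold. With library totals alone the log2 change was 0.22 (edgeR adjusted p = 0.43), and with upper-quartile factors 0.47 (adjusted p = 0.13). Leaving out each library in turn gave edgeR adjusted p of 0.066 to 0.27.

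Sds, which turns serine into pyruvate, stood at 194, 164 and 139 CPM in libraries 2, 3 and 2600, and at 146, 182 and 144 CPM in scrambled libraries 28, 30 and 31. The groups overlapped throughout (log2 change 0.07 ± 0.17, SE, edgeR adjusted p = 0.82), and the sign turned with library totals alone (-0.28), with upper-quartile factors (-0.027) and without library 2 (-0.091). The gene (ENSMUSG00000029597, chromosome 5, 120476531 to 120483932, plus strand) shares exon sequence with Plbd2 on the opposite strand. Plbd2 held up to 50.1% as many counts as Sds, and whether strand was used in counting is not given, so the Sds level is uncertain. Of the other serine-using dehydratase and racemase genes listed, Sdsl and Srr did not pass either (log2 changes 0.33 and 0.29, adjusted p = 0.27 and 0.23).

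Pklr was the single gene of the 9 with a negative estimate, and its libraries scattered most. The gene (ENSMUSG00000041237, chromosome 3, 89136142 to 89146784, plus strand) stood at 332, 209 and 75.8 CPM in libraries 2, 3 and 2600, and at 257, 362 and 316 CPM in scrambled libraries 28, 30 and 31. Library 2 lay within the control range, and libraries 3 and 2600 lay below every control. The means were 206 ± 128 and 312 ± 52.5 CPM (SD, n = 3 each), and the SD was 62.3% of the mean in the S100a11 shRNA libraries against 16.8% in the controls. The log2 change of -0.60 ± 0.43 (SE) did not pass (edgeR adjusted p = 0.39). Leaving out library 2, the one with control-level S100a11, gave -1.17, which passed (adjusted p = 0.044), and leaving out library 2600 gave -0.21 (adjusted p = 0.64).

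Slc2a2 did not pass, with 384, 455 and 308 CPM in libraries 2, 3 and 2600 against 414, 341 and 356 CPM in scrambled libraries 28, 30 and 31. The groups overlapped, and both the highest and the lowest value belonged to S100a11 shRNA libraries (ENSMUSG00000027690, chromosome 3, 28697903 to 28728363, plus strand). The log2 change was 0.04 ± 0.18 (SE, edgeR adjusted p = 0.90), and its sign turned with library totals alone (-0.30), with upper-quartile factors (-0.050), without library 3 (-0.099) and without scrambled library 30 (-0.01).

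Ppargc1a varied least. It stood at 24.7, 25.3 and 25.6 CPM in libraries 2, 3 and 2600, and at 22.8, 24.5 and 23.0 CPM in scrambled libraries 28, 30 and 31 (ENSMUSG00000029167, chromosome 5, 51454249 to 51567725, minus strand). The SD was 1.94% and 4.03% of the group means. The groups lay side by side without overlap, the lowest S100a11 shRNA library just over the highest control, and the difference was 1.08-fold (log2 change 0.11 ± 0.12, SE, edgeR adjusted p = 0.61). With library totals alone the estimate was -0.26 (adjusted p = 0.21).

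**Figure D2:**
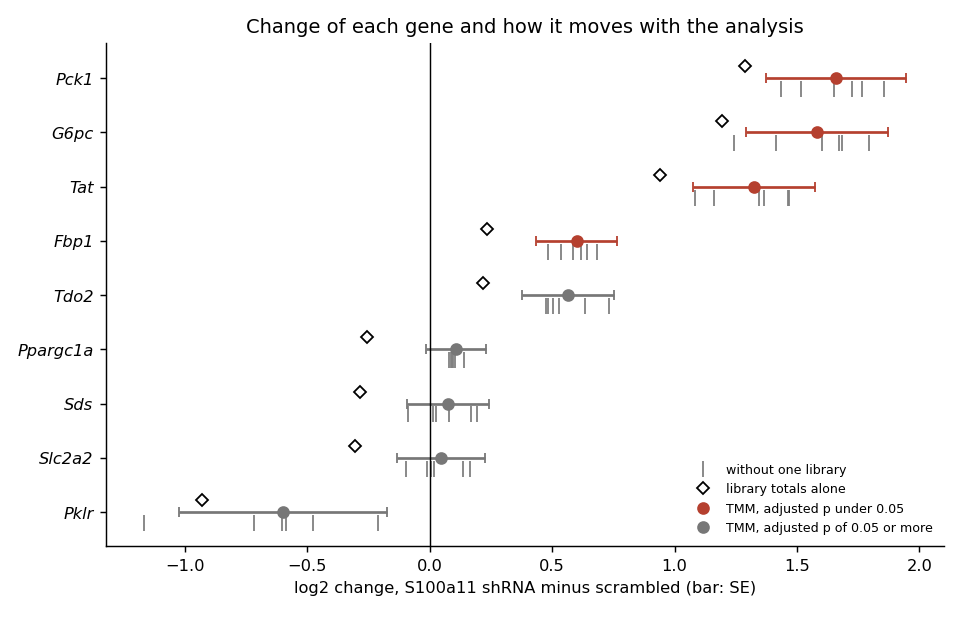
Log2 change of each gene between S100a11 shRNA and scrambled libraries (horizontal axis) with its SE, red where the adjusted p is under 0.05. Grey ticks leave out 1 library each and open diamonds scale by library totals alone. Pck1, G6pc and Tat stay over 0.9 throughout, whereas Ppargc1a, Sds and Slc2a2 lie near 0 and Pklr spans -1.17 to -0.21.

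Within groups, the members did not all vary in step. Among the S100a11 shRNA libraries, library 2600 held the highest Pck1, G6pc, Fbp1, Tat and Ppargc1a and the lowest Sds, Tdo2, Pklr and Slc2a2. Library 2 held the lowest G6pc, Tat, Fbp1 and Ppargc1a and the highest Sds, Tdo2 and Pklr of that group. Among the controls, library 28 held the lowest Pck1, G6pc, Tat, Pklr and Ppargc1a and the highest Fbp1, Tdo2 and Slc2a2. Library 2600 was also the library with the largest Gm26917 share and library 2 the one with control-level S100a11, and the part of either in these values was not tested.

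Scaling moved all genes together. Library totals alone put the all-gene median log2 change at -0.32, in place of 0.04. Relative to that median, the change of Pck1 was 1.62 with TMM and 1.60 with library totals, that of G6pc 1.54 and 1.51, that of Tat 1.28 and 1.26, that of Fbp1 0.56 and 0.55 and that of Pklr -0.64 and -0.61. The order of the members was therefore nearly the same with either scaling, and the zero point was what differed.

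Per length, Pck1 was the most abundant of the 9 transcripts in both groups. The level in TMM-scaled CPM per kb of gene model averaged 290 ± 88.8 for Pck1, 258 ± 25.7 for Fbp1, 153 ± 33.9 for Tat, 137 ± 25.8 for Tdo2 and 134 ± 13.9 for Slc2a2 in the scrambled libraries (SD, n = 3 each). Sds followed at 97.7 ± 13.3, Pklr at 96.3 ± 16.2, G6pc at 66.5 ± 14.5 and Ppargc1a at 3.52 ± 0.14. The ranges of Pck1 and Fbp1 overlapped, as did those of Tat and Tdo2, of Tdo2 and Slc2a2 and of Sds and Pklr, so these neighbours in the order did not differ beyond their spread.

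In the S100a11 shRNA libraries the order began with Pck1 at 915 ± 152 per kb, followed by Fbp1 at 391 ± 46.0, Tat at 383 ± 103, Tdo2 at 203 ± 20.5 and G6pc at 199 ± 76.5 (SD, n = 3 each). Slc2a2 at 139 ± 26.7, Sds at 103 ± 16.9, Pklr at 63.6 ± 39.6 and Ppargc1a at 3.79 ± 0.074 came after. Pck1 stood clear of Fbp1 here, with its lowest library at 777 and the highest Fbp1 library at 444 per kb. Neighbours whose ranges overlapped were Fbp1 and Tat, Slc2a2 and Sds, and Sds and Pklr. G6pc stood at rank 5 of the 9, against rank 8 in the controls, and its range overlapped those of Tdo2 and Slc2a2 on either side. Lengths were the deposited ones. With the exons of GENCODE M21, whose Slc2a2 model is longer, Slc2a2 in the scrambled libraries was 64.4 per kb, at rank 8.

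Opposed enzymes can be compared within a library, where scaling between libraries has no part. For each pair the value is the ratio of their counts per kb. The ratio of Pck1 to Pklr was 8.68, 12.0 and 46.1 in libraries 2, 3 and 2600, and 2.40, 2.82 and 3.71 in scrambled libraries 28, 30 and 31. The groups did not overlap, and the difference was 2.53 on the log2 scale, or 3.00 without library 2 and 1.80 without library 2600. This ratio combines 2 genes described above and is not a separate finding.

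For Fbp1 and Pfkl, the liver phosphofructokinase, the ratio was 37.9, 42.4 and 43.1 in libraries 2, 3 and 2600, while scrambled libraries 28, 30 and 31 had 34.5, 23.8 and 22.9. The difference of 0.63 on the log2 scale was less than that of Pck1 and Pklr, and control library 28 lay near library 2. Pfkl did not pass (log2 change -0.036, edgeR adjusted p = 0.90), and its sign turned without library 3 (0.029) or scrambled library 31 (0.066). An exact two-sided permutation test gave p = 0.1 for both ratios, the smallest possible here.

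**Figure D3:**
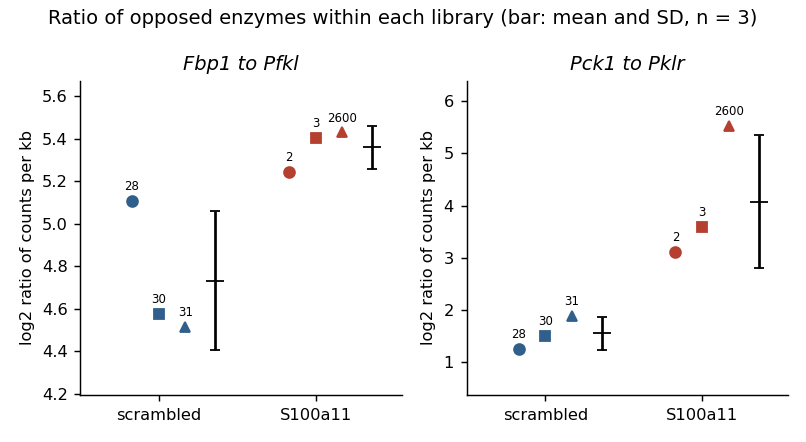
Log2 ratio of counts per kb of each gluconeogenic enzyme to the glycolytic enzyme it opposes (vertical axes differ and do not start at 0), in every library, with mean and SD (n = 3). The groups lie apart in both panels, and library 2600 has the highest value in each.

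The genes most like Pck1, Tat and Pklr over the 6 libraries were found by the root mean square difference of log2 CPM, each gene centred on its own mean, in a search over 10614 genes averaging 5 CPM or more. Nearest to Pck1 were Chrna2, E2f8 and Mettl20, at 0.165, 0.165 and 0.184. Nearest to Tat were Mtl5, Cyp8b1 and Fbxo31, at 0.117, 0.145 and 0.158. Nearest to Pklr were Tpm3, Fdps and Ltbp1, at 0.186, 0.208 and 0.250. These distances describe 6 libraries and carry no test.

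The other genes of the pathway come from lists, of which the first 4 genes by p in each direction are named. Each list count stands beside the shares over all 19352 genes tested, of which 5.82% rose and 8.28% fell. Positive estimates were held by 10421 of the 19352. Few of the remaining gluconeogenic and shared glycolytic enzymes passed the threshold: of 29 tested, 2 rose and 0 fell. In this list 22 of the 29 had positive estimates (14 with library totals alone), with a median log2 change of 0.28. Slc37a4, the carrier that brings glucose 6-phosphate to G6pc, was 1.56-fold higher (128, 146 and 150 CPM in libraries 2, 3 and 2600 against 97.2, 93.9 and 80.5 CPM, edgeR adjusted p = 0.018). Its call ended without library 3, scrambled library 30 or scrambled library 31 (adjusted p of up to 0.080) and with library totals alone (adjusted p = 0.18). Mpc2, a subunit of the mitochondrial pyruvate carrier, was 1.58-fold higher at the threshold (adjusted p = 0.0498), a call that did not hold without any of the 6 libraries (adjusted p of 0.066 to 0.19). No gene of this list rose without scrambled library 30 or 31, 1 rose without library 3, and 3 rose and 3 fell without library 2. Library totals alone gave 0 rises and 3 falls, and DESeq2 10 rises and 1 fall.

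Among 28 genes of glycolysis control, 2 rose and 5 fell, with a median log2 change of 0.03. The falls included forms that hepatocytes are known to express little. Hk2, a hexokinase, was 1.95-fold lower (15.3, 14.4 and 13.6 CPM in libraries 2, 3 and 2600 against 26.0, 30.4 and 27.9 CPM, edgeR adjusted p = 0.0052). Pfkp, the platelet phosphofructokinase, was 2.14-fold lower (adjusted p = 0.0071), Hkdc1, a hexokinase-like gene, 4.61-fold lower (adjusted p = 0.0077) and Pfkfb4 2.04-fold lower (adjusted p = 0.0082, or 0.051 without scrambled library 30). The fifth fall was Pkm, the pyruvate kinase of most tissues, 1.92-fold lower (adjusted p = 0.011). The rises were Pdp2, a phosphatase that activates pyruvate dehydrogenase, 1.89-fold higher (adjusted p = 0.0051), and Pfkfb1, the liver enzyme that sets fructose 2,6-bisphosphate, 1.87-fold higher (adjusted p = 0.011, or 0.054 with library totals alone). Scaled by library totals alone, 9 of the 28 fell.

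Markers of some other liver cells were lower in the same libraries as Hk2, Pfkp and Pkm. Of 6 cholangiocyte markers 6 fell, and their summed level was 39.8 to 75.7 CPM against 246 to 362 CPM in the controls. Of 6 stellate cell markers 4 fell, Dcn, Des, Col1a1 and Col3a1 (summed level of all 6, 390 to 719 against 850 to 1229 CPM). The others, Reln and Lrat, did not pass (log2 changes -0.17 and 0.05). Of 6 macrophage markers 2 fell, and their summed levels overlapped between the groups (239 to 553 against 444 to 683 CPM). Of 6 lymphocyte markers 1 fell (53.8 to 73.8 against 90.2 to 119 CPM). Of 6 endothelial markers 1 rose and 1 fell (541 to 794 against 540 to 612 CPM). Of 6 exocrine pancreas markers, 1 could be tested and fell, Cpa1, which was at 0 in libraries 3 and 2600, and their summed level was at most 5.05 CPM. No marker was at 0 in all 6 libraries. In whole tissue, fewer cells of a type and less RNA per cell cannot be told apart, and the part of these shifts in the changes of single genes was not tested.

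The members were also set against hepatocyte RNA. Of 10 hepatocyte markers 1 rose and 0 fell, and their summed level was 53897 to 64185 CPM in the S100a11 shRNA libraries against 40822 to 48063 CPM in the controls, without overlap. The rise was Serpina3k, at 3881, 8745 and 8626 CPM in libraries 2, 3 and 2600 against 2459, 2457 and 1453 CPM (edgeR adjusted p = 0.022). Without Serpina3k the summed levels of the groups would overlap. Alb, the largest part of the sum over all 10, overlapped between the groups. As a percentage of that sum, a measure chosen after seeing the data, Pck1 was 4.76%, 4.67% and 6.86% in libraries 2, 3 and 2600 and, in the order 28, 30 and 31, 1.36%, 2.65% and 2.59% in the controls. G6pc was 0.477%, 0.812% and 1.25% against 0.250%, 0.440% and 0.379%, and Tat 1.08%, 1.56% and 2.20% against 0.581%, 0.954% and 0.910%. These 3 genes stayed higher in every S100a11 shRNA library, by 2.54-fold, 2.27-fold and 1.94-fold.

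Fbp1 and Tdo2 overlapped between the groups on that measure, at 1.18-fold and 1.17-fold. Pklr was 0.517%, 0.367% and 0.141% of the marker sum in libraries 2, 3 and 2600 and 0.536%, 0.887% and 0.658% in scrambled libraries 28, 30 and 31. All S100a11 shRNA values of Pklr were then under all controls, although library 2 lay just below library 28. Ppargc1a, Sds and Slc2a2 overlapped, with log2 differences of -0.25, -0.29 and -0.32.

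Breakdown of amino acids beyond Tat, Sds and Tdo2 held the most rises among the lists. Of 40 tested enzymes 22 rose and 0 fell, and 40 of 40 had positive estimates (38 with upper-quartile factors and 29 with library totals alone), with a median log2 change of 0.63 beside 0.04 over all genes. Positive estimates were also held by 9 of the 10 hepatocyte markers, with a median log2 change of 0.31. The part of such a shift in the enzymes was not tested. Afmid, the formamidase that follows Tdo2, was 2.44-fold higher (122, 153 and 147 CPM in libraries 2, 3 and 2600 against 59.4, 54.9 and 58.4 CPM, edgeR adjusted p = 0.0030). Kmo, the next enzyme of that route, was 2.21-fold higher (302, 292 and 340 against 146, 118 and 158 CPM, adjusted p = 0.0050). Aass, which starts lysine breakdown, was 1.86-fold higher (adjusted p = 0.0070) and Shmt1, which interconverts serine and glycine, 1.90-fold higher (adjusted p = 0.0081). These 4 passed without each library in turn. The count of rises was 24 without library 2 and 17 without library 2600. It was 12 without library 3, 13, 8 and 11 without scrambled libraries 28, 30 and 31, and 11 with library totals alone.

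The steps that follow Tat and Tdo2 were then read one by one, a choice made after their values were seen. After Tat, all 4 listed enzymes of tyrosine breakdown rose: Hpd 2.22-fold (adjusted p = 0.012), Hgd 1.77-fold (adjusted p = 0.015), Gstz1 1.47-fold (adjusted p = 0.035) and Fah 1.54-fold (adjusted p = 0.027). Each of these calls ended without scrambled library 30. Hpd then had an adjusted p of 0.060 and Hgd, whose call also ended without library 28, one of up to 0.079. Gstz1 and Fah also lost theirs without libraries 3, 28 and 31 (adjusted p of up to 0.155 and 0.125), and with library totals alone (adjusted p = 0.36 and 0.20), and Gstz1 with upper-quartile factors (adjusted p = 0.057). After Tdo2, Afmid, Kmo and Haao rose, the last 1.61-fold (adjusted p = 0.032, or up to 0.139 without library 3, 2600, 30 or 31, and 0.165 with library totals alone). Kynu and Acmsd did not pass (log2 changes 0.38 and 0.14, adjusted p = 0.20 and 0.73). Ido2, which carries out the same first step as Tdo2, rose 2.01-fold (87.4, 95.9 and 76.8 against 52.0, 33.8 and 43.7 CPM, adjusted p = 0.0097).

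Genes listed as transcriptional regulators of gluconeogenesis rose in part, although Ppargc1a did not pass. Whether they acted on the promoters of the 9 genes here was not tested. Of 36 transcriptional regulators 9 rose and 0 fell, with a median log2 change of 0.38. Klf15, a factor of amino acid breakdown and gluconeogenesis, was 1.83-fold higher (150, 203 and 160 CPM in libraries 2, 3 and 2600 against 82.8, 95.2 and 103 CPM, edgeR adjusted p = 0.011). Foxo1, which insulin inactivates, was 1.81-fold higher (112, 112 and 84.7 against 52.1, 54.1 and 64.4 CPM, adjusted p = 0.011). Ppara, the fatty acid receptor, was 1.70-fold higher (adjusted p = 0.012), and Creb3l3, a fasting-responsive factor, 1.65-fold higher (adjusted p = 0.016). None of the 9 passed without scrambled library 30 (Klf15 adjusted p = 0.054, Foxo1 0.062, Ppara 0.065, Creb3l3 0.071) or with library totals alone, where 1 gene fell, and 15 of the 36 rose without library 2, 3 without library 3 and 4 without scrambled library 28 or 31. Creb3l3 also lost its call without libraries 3, 28 and 31.

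Of 31 genes of glucagon and insulin signalling 2 rose and 2 fell, shares near the 5.82% and 8.28% of all genes tested. Adra1b, the adrenergic receptor of hepatocytes, was 2.21-fold higher (adjusted p = 0.011) and Pde3b, a phosphodiesterase through which insulin lowers cAMP, 1.73-fold higher (adjusted p = 0.011), but neither passed without scrambled library 30 (adjusted p = 0.058 and 0.062). Grb10, an adaptor that restrains the insulin receptor, was 1.66-fold lower (adjusted p = 0.018) and Trib3, which binds AKT, 1.65-fold lower (adjusted p = 0.029). Without library 2, 6 of the 31 rose and 3 fell, and without scrambled library 30, 0 rose and 0 fell. With library totals alone 1 rose and 4 fell, and Pde3b did not pass (adjusted p = 0.073). Grb10 lost its call without library 3, 30 or 31 (adjusted p of up to 0.096) and Trib3 without library 3, 28, 30 or 31 (adjusted p of up to 0.12).

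In glycogen metabolism 3 of 23 genes rose and 1 fell. Ppp1r3b, which targets phosphatase to glycogen, was 2.13-fold higher (381, 440 and 243 CPM in libraries 2, 3 and 2600 against 159, 184 and 158 CPM, edgeR adjusted p = 0.014), Gys2, liver glycogen synthase, higher by 0.59 on the log2 scale (adjusted p = 0.028) and Ppp1r3g 3.83-fold higher (adjusted p = 0.036). Pygb, a glycogen phosphorylase outside the liver form, was 2.04-fold lower (adjusted p = 0.014). All 4 calls ended without scrambled library 30. Without library 3 or scrambled library 28, 0 of the 23 rose, without scrambled library 31, 1 rose and 0 fell, and without library 2, 4 fell. With library totals alone 1 rose and 4 fell, and Ppp1r3b (adjusted p = 0.054) and Gys2 (adjusted p = 0.31) did not pass. Without library 2600 the log2 change of Ppp1r3g was 1.27, and without scrambled library 31 it was 2.55, against 1.94 in all 6. Ppp1r3b and Gys2 also lost theirs without libraries 3, 28 and 31 (adjusted p of up to 0.060 and 0.12), Ppp1r3g without libraries 3, 2600 and 28 (up to 0.13) and Pygb without library 31 (up to 0.064).

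Among 14 glucose and lactate carriers beside Slc2a2, 0 rose and 3 fell, from low levels. Slc5a1, a sodium-coupled glucose carrier, was 4.80-fold lower (1.81, 1.26 and 1.57 CPM in libraries 2, 3 and 2600 against a control mean of 7.42 ± 2.39 CPM, SD, n = 3, edgeR adjusted p = 0.0037). Slc37a2, a phosphate-linked sugar phosphate carrier known from macrophages, was 2.52-fold lower (adjusted p = 0.0041). Slc16a3, a lactate exporter, was 2.69-fold lower (adjusted p = 0.021, or up to 0.078 without library 3, 30 or 31). The lower cell markers given beside Hk2 stood in the same libraries as these falls too. Scaled by library totals alone, 6 of the 14 fell.

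**Figure D4:**
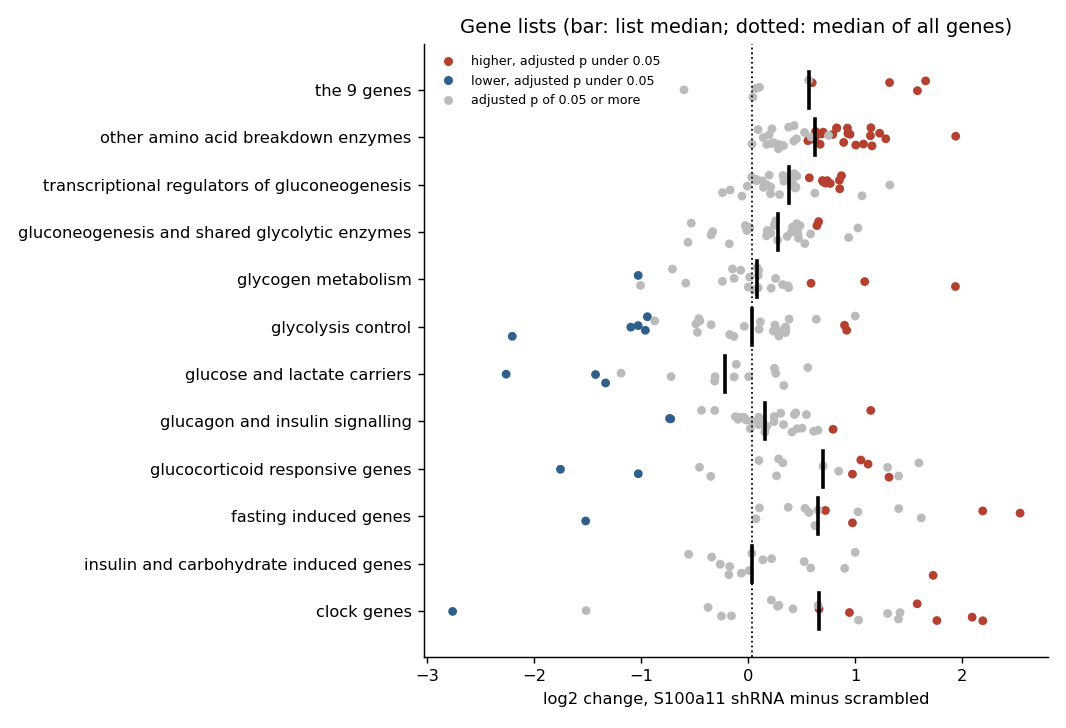
Log2 change of every tested gene (points, horizontal axis) in the 9 genes and 11 further lists, red for rises and blue for falls past an adjusted p of 0.05, with the list median as a black bar and the median of all genes, 0.04, as a dotted line. All 40 amino acid breakdown enzymes lie to the right of 0 with this scaling, 29 of them with library totals alone. Of the 10 hepatocyte markers, which are not drawn, 9 had positive estimates.

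Genes that report hormones, feeding and time of day give further values beside those of Pck1, G6pc and Tat. Of 17 glucocorticoid responsive genes 4 rose and 2 fell, and the median log2 change was 0.70. Positive estimates were held by 13 of the 17, beside 10421 of all 19352 genes. Fkbp5 was 2.18-fold higher (87.6, 58.3 and 68.6 CPM in libraries 2, 3 and 2600 against 24.6, 41.6 and 32.4 CPM, edgeR adjusted p = 0.014), Zbtb16 2.49-fold (adjusted p = 0.013), Tsc22d3 2.08-fold (adjusted p = 0.017) and Angptl4 1.97-fold (adjusted p = 0.022). Lcn2 was 3.37-fold lower (adjusted p = 0.0045) and Gadd45b 2.04-fold lower (adjusted p = 0.016). Without library 3, 1 of the 17 rose and 1 fell, and 2 rose and 1 fell without scrambled library 30 or 31. Leaving out library 2 gave 6 rises and 4 falls. With library totals alone 1 rose and 4 fell, and Fkbp5, Tsc22d3 and Angptl4 did not pass (adjusted p = 0.053, 0.062 and 0.074). Fkbp5 lost its call without library 31 (adjusted p = 0.051), Zbtb16 without 3 or 31 (up to 0.057), Tsc22d3 without 3 or 30 (up to 0.064), Angptl4 without 3, 2600, 28 or 30 (up to 0.068) and Gadd45b without 3, 30 or 31 (up to 0.070).

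Of 15 fasting induced genes, a list that includes Ppargc1a, 4 rose and 1 fell, 14 had positive estimates, and the median log2 change was 0.65. Acot1 was 5.83-fold, Cyp4a10 4.57-fold, Creb3l3 1.65-fold and Angptl4 1.97-fold higher, and Fgf21 2.87-fold lower (adjusted p of 0.0030 to 0.022). Creb3l3 is also in the list of regulators and Angptl4 in the glucocorticoid list, so their rises are not separate findings. Igfbp1, Irs2, Lpin1 and Pdk4, which did not pass, are in other lists too. Cyp4a10 did not pass without scrambled library 28 or 30 (adjusted p of up to 0.071), where 1 of the 15 rose. Without library 2600, its highest library, the log2 change of Cyp4a10 was 1.44 against 2.19 in all 6. Of 15 insulin and carbohydrate induced genes 1 rose and 0 fell, namely Thrsp, 3.32-fold higher (357, 507 and 194 CPM against 75.4, 129 and 114 CPM, adjusted p = 0.013). That 1 of 15 is near the 5.82% of all genes that rose. In this list 2 rose without library 2, 3 or 2600, and without library 2 there was also 1 fall. With library totals alone 2 fasting induced genes rose and 1 fell, and 1 insulin and carbohydrate induced gene rose and 2 fell.

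Of 20 clock genes 6 rose and 1 fell, with a median log2 change of 0.66. The repressors Cry1 and Per2 were 4.27-fold and 2.99-fold higher (edgeR adjusted p = 0.0037 and 0.0079), and Cry2 1.58-fold (adjusted p = 0.018, or up to 0.075 without library 3, 28, 30 or 31 and 0.17 with library totals alone). Npas2, an activator partner, was 6.79-fold lower (adjusted p = 0.031, or up to 0.097 without library 3, 28, 30 or 31). Its log2 change was -2.76, or -4.09 without library 2600. Cry1 and Per2 passed without each library in turn. Rises numbered 10 without library 2600 and 3 without library 3 or scrambled library 30, and with library totals alone 4 rose and 2 fell. Pck1, G6pc and Tat are known to vary over the day and with meals, and the part of clock state, feeding or glucocorticoids in their changes was not tested.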

How the data were processed

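Libraries of mouse liver RNA were compared, 3 labelled S100a11 shRNA and 3 scrambled. Per the labels' protocols, stranded total RNA libraries were made after ribosomal depletion. The deposited values are raw counts per gene, with a gene length in bases, and the submitters' processing notes name mm10. Aligner, counter, strand setting and annotation were not given in the sources used here. Both the members and the lists were chosen with earlier results of these data known.

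Low genes were removed with filterByExpr (count of at least 10, total of at least 15), and the rest scaled by TMM and tested by edgeR 4.0.16 (glmQLFit without the legacy option, glmQLFTest) in R 4.3.3, with Benjamini-Hochberg adjustment over 19352 genes. No list was tested as a set. Named genes were the 9 members, S100a11, the pair partners, the nearest 3 genes of Pck1, Tat and Pklr, and the first 4 genes by p per list and direction, and some results that this rule covers are not reported here. No 2 libraries agreed within sampling noise (lowest chi-square per gene 48.4). GENCODE M21 gave exons, strands and current symbols, and all 326 list entries were matched. The procedure was tested on simulated data. Alternatives used DESeq2 1.42.0 and limma 3.58.1, other factors and filters, and each library left out. The legacy fit, GENCODE lengths and the hepatocyte marker share were added after seeing the data. Figures used matplotlib 3.10.9.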

Additional observations from a re-analysis of the deposited data

How the results depend on the processing

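Over 17 alternatives for each of the 9 genes (153 values), 134 kept their sign and side of the threshold, 8 lost a call, 3 gained one and 8 changed sign. The sign changes were those of Sds and Slc2a2 with upper-quartile factors (-0.027 and -0.050), of Ppargc1a, Sds and Slc2a2 with library totals alone (-0.26, -0.28 and -0.30), of Sds without library 2 (-0.091 to 0.19 over the libraries left out in turn), and of Slc2a2 without library 3 or scrambled library 30 (-0.099 to 0.16). As a share of hepatocyte markers, Ppargc1a, Sds and Slc2a2 were at -0.25, -0.29 and -0.32. Among other named genes Acmsd, Sdsl and Srr turned with library totals alone (-0.22, -0.026 and -0.058), and Pfkl without library 3 or scrambled library 31 (-0.14 to 0.066). The cause of these turns was not tested, and each concerns a gene that did not pass. Leaving out each library in turn gave 2 to 4 members higher (2 without scrambled library 30) and 0 to 1 lower (1 without library 2), 221 to 1806 genes higher and 503 to 2370 genes lower. These fits have fewer samples. Library totals alone gave 397 genes higher and 3970 lower against 1126 and 1602 with TMM, and an adjusted p under 0.1 gave 1819 higher. Without each library the log2 difference of the ratio of Pck1 to Pklr was 1.80 to 3.00. The order of Slc2a2, Sds, Pklr and G6pc per kb depended on the length used. No paired analysis was possible because the groups share no replicate number. Counting error was at most 2.98% of any value of the 9 genes.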
